A study of Mus musculus with 9 samples.

Results

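The livers of male C57BL/6J mice in constant darkness (DD) were compared between CT1 and CT17, which are 2 of the 6 circadian times sampled. CT, circadian time, counts hours of the animals' own day, so that CT1 lies early in the subjective day and CT17 in the middle of the subjective night. The 2 libraries were chosen by a measured value, namely that acute phase genes are high in both of them, and the purpose was to describe what separates them beside that state. Of 20418 genes named in the deposited counts, 11306 had 100 or more counts in at least 1 of the 2 libraries, and these are the genes compared. At that threshold, 163 genes had a larger count of 100 to 109, of which 7 lay 2-fold apart, and 133 genes just outside had 90 to 99, of which 4 did. The mice had lived under a cycle of 12 h light and 12 h dark for 1 week and then in DD for 6 weeks. Their age, the number of animals and any genetic change were not stated in what was read here, and no drug treatment is named for either group. Livers were pooled and 1 polyA+ RNA library was made per time, so each value comes from 1 library of a pool, and the series holds 9 such libraries (the 6 times in DD and ad libitum, fasted and refed livers). A difference between CT1 and CT17 therefore has no replicate check and no p-value, and time of day, pool and library cannot be told apart.

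The liver keeps time with a feedback loop in which the activators ARNTL (BMAL1), CLOCK and NPAS2 drive genes through E-box elements, and the PER and CRY proteins repress these activators. NR1D1 (REV-ERBα) and NR1D2 repress Arntl through elements that the ROR receptors activate, and DBP, TEF and HLF carry the rhythm to output genes through D-box elements. Hepatocytes also make cholesterol under the control of SREBP2, and a large load of secreted protein is folded in their endoplasmic reticulum (ER), whose chaperone genes respond to the unfolded protein response.

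The total over genes was 53721537 counts at CT1 and 54884254 at CT17, against 43497102 to 59632116 over all 9 libraries. Levels are given as TMM-scaled CPM, counts scaled to library size and adjusted by the trimmed mean of M values over the 9 libraries, and differences as the log2 ratio of CT1 to CT17, which is positive where CT1 was higher. Where parentheses after levels hold a single signed value it is this log2 ratio, ranges in parentheses are exact 95% intervals, and a range after "against" spans the other 4 DD libraries. They cover counting error only, and reads of 1 PCR-amplified library are not independent molecules. The livers had high levels of hepatocyte genes, with 15 of 15 markers at the minimum and albumin (Alb) at 38473 CPM at CT1 and 48188 at CT17, against 50401 to 72667 at the other 4 times in DD. All 15 markers had CT17 higher under TMM, with a median log2 ratio of -0.37, and G6pc and Tat among them were past 2-fold. In a piece of liver, fewer cells of a type and less RNA per cell cannot be told apart.

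Few genes separated the 2 libraries. At least 2-fold higher at CT1 were 68 genes (0.601% of 11306), and at least 2-fold higher at CT17 were 151 genes (1.34%), which makes 219 genes or 1.94% together. A 4-fold difference was passed by 10 genes with CT1 higher (0.0884%) and by 15 genes with CT17 higher (0.133%). The median log2 ratio of all 11306 genes was -0.03, and the quartiles lay at -0.22 and 0.14. All 219 genes had counting intervals that excluded equal levels, but so did 6730 of the 11306 genes, since the libraries are deep. For 38 genes with CT1 higher and 96 with CT17 higher, the whole interval lay beyond 2-fold. The split between directions depended on the scaling, since total-count scaling raised every log2 ratio by 0.17 and then gave 107 genes with CT1 higher and 105 with CT17 higher. Negative ratios smaller in size than that shift therefore turn positive, while positive ratios grow. The direction of ratios that small also has no replicate check.

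Among the 15 pairs of DD libraries, CT1 and CT17 had the second smallest share of genes 2-fold apart. CT9 and CT13 had the smallest, at 1.59%, and the other 13 pairs ran from 2.66% for CT5 and CT21 to 9.16% for CT1 and CT13. The pairs share libraries, and CT1 and CT17 were picked as alike in acute phase genes, so their closeness is in part what chose them.

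**Figure D1:**
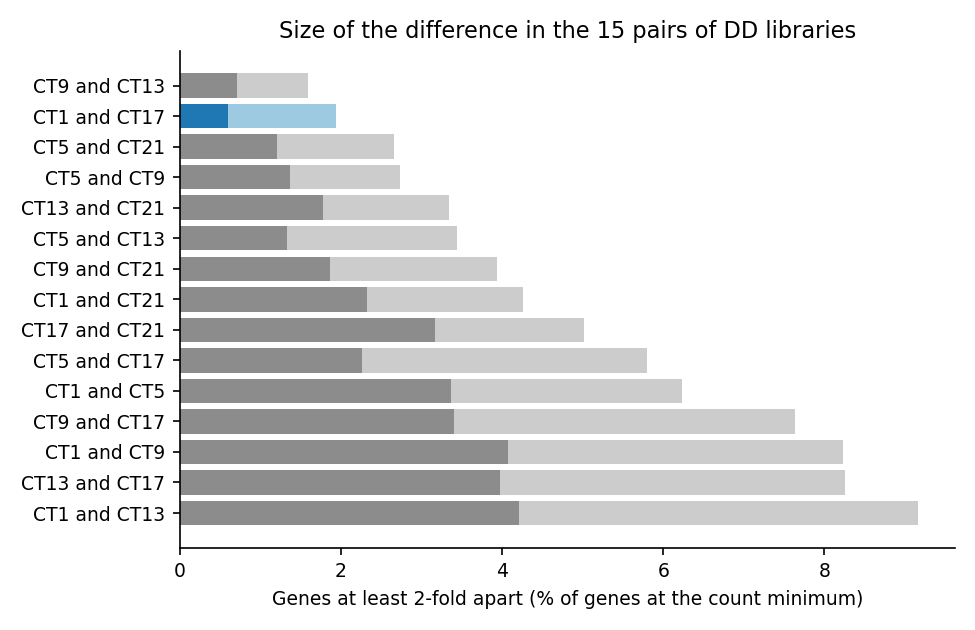
Share of genes at least 2-fold apart in each of the 15 pairs of DD libraries, in percent of the genes with 100 or more counts in either library of the pair. The dark part of a bar is genes higher in the first named library and the light part genes higher in the second. The pair of CT1 and CT17, in blue, stands at 1.94%, with 68 genes higher at CT1 and 151 higher at CT17.

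The acute phase genes, most of which encode secreted plasma proteins that hepatocytes make during inflammation, chose the libraries and are given here as a description. The 30 genes of the list took 16.9% of counts at CT1 and 16.4% at CT17, while CT5, CT9, CT13 and CT21 had 2.74% to 4.01%. In 29 of the 30 genes both libraries lay above the other 4 DD libraries. The exception was Hamp, the iron hormone hepcidin, at 165 CPM at CT1 and 302 at CT17 against 121 to 381.

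The list largely cancelled between the libraries. Of its 30 genes 29 lay less than 2-fold apart, as did most genes, since only 1.94% of all genes compared were 2-fold apart. In the list 11 genes were higher at CT1 and 19 at CT17, and the median log2 ratio was -0.17, which total-count scaling moved to -0.00153. Haptoglobin (Hp), which binds free hemoglobin, stood at 23959 CPM at CT1 and 26278 at CT17, whereas the other 4 libraries held 2446 to 4529. The fibrinogen chain Fga stood at 23665 at CT1 and 20798 at CT17, against 3778 to 6214. The serum amyloid gene Saa2 stood at 12182 at CT1 and 16829 at CT17, against 11.4 to 88.6, a log2 ratio of -0.47. Fibrinogen chains were thus slightly higher at CT1 under TMM (Fga 0.19, Fgb 0.16, Fgg 0.17) and serum amyloid genes slightly higher at CT17, with Saa1 at -0.34 and Saa3 at -0.83. The gene past 2-fold was Mt2, a metallothionein that binds zinc, at 197 CPM at CT1 and 426 at CT17 (log2 ratio -1.11, -1.14 to -1.08).

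**Figure D2:**
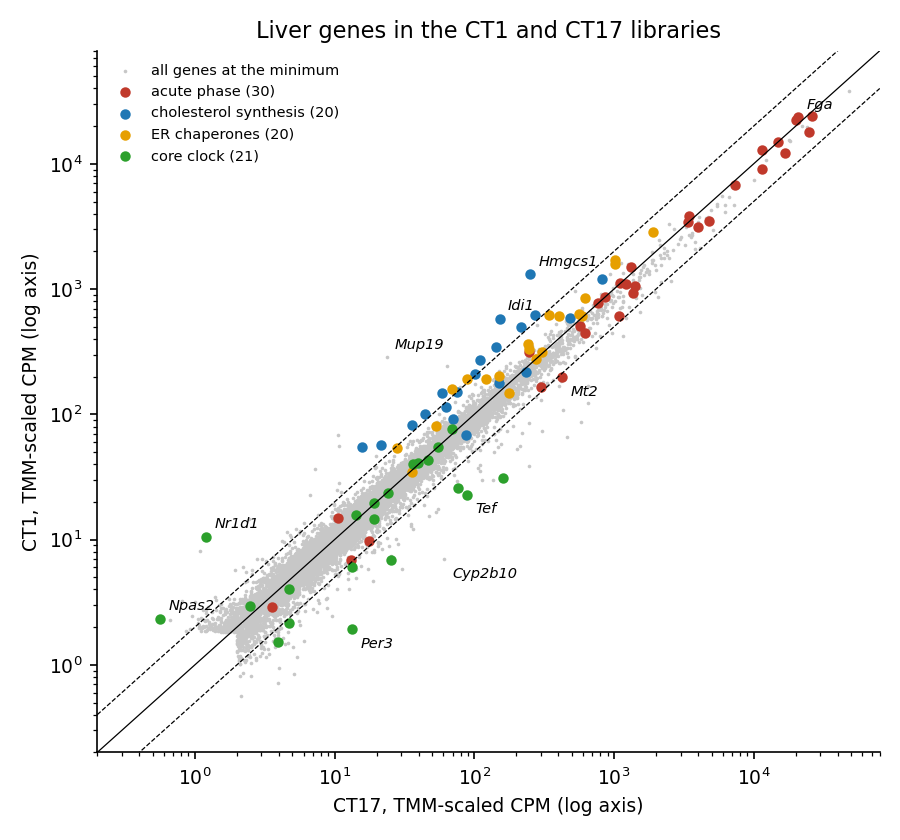
TMM-scaled CPM of the 11306 genes at CT17 (horizontal) and CT1 (vertical), both on log axes. The solid line marks equal levels and the dashed lines a 2-fold difference; coloured points are the members of 4 lists. The 30 acute phase genes follow the line up to the highest levels with Mt2 alone beyond 2-fold, while 12 cholesterol synthesis genes lie above the upper dashed line.

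Of the 52 lists with 3 or more genes at the minimum, cholesterol synthesis had the highest median, in favour of CT1. Of its 20 genes, all at the minimum, 12 were at least 2-fold higher at CT1, against 0.601% of all genes compared, 0 were at CT17, and the median log2 ratio was 1.18. These 12 genes make up part of the 68 genes higher at CT1 in all. The enzymes stand from the first committed steps to the last, beginning with HMG-CoA synthase (Hmgcs1). Hmgcs1 stood at 1312 CPM at CT1 (1303 to 1322) and 252 at CT17 (248 to 256), and at 261, 212, 209 and 407 at CT5, CT9, CT13 and CT21. CT1 was thus above all 5 other times, while CT17 lay among them, and the ratio of CT1 to CT17 was 5.21-fold (log2 2.38, 2.35 to 2.41).

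Idi1, the isomerase of the 5-carbon isoprene unit, stood at 580 CPM at CT1 and 152 at CT17, against 154 to 242 at the other 4 times (log2 ratio 1.93, 1.89 to 1.97). Mvk, mevalonate kinase, stood at 55.1 CPM at CT1 and 15.7 at CT17, against 12.2 to 25.3 (1.81, 1.70 to 1.93). Mvd, mevalonate diphosphate decarboxylase, stood at 56.6 CPM at CT1 and 21.4 at CT17, against 14.5 to 37.6 (1.40, 1.30 to 1.51). In each of these 3 genes CT1 was the highest of the 6 times and CT17 lay within or just under the range of the rest. The later enzymes had smaller ratios of one size, with Lss (lanosterol synthase) at 1.32, Fdft1 (squalene synthase) at 1.30, Msmo1 at 1.27, Cyp51 at 1.22, Dhcr7 at 1.21, Fdps at 1.19, Nsdhl at 1.17 and Sqle at 1.07. Hsd17b7, at 0.99, lay just under 2-fold.

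CT1 was the highest of the 6 DD libraries in 16 of the 20 genes, and in all 12 of those past 2-fold. Over all genes compared CT1 was above the other 4 DD libraries, CT17 set aside, in 20.2%. The list was not uniform. Ebp at -0.10 and Tm7sf2 at -0.35 had CT17 higher under TMM, and Ebp changed sign under total-count scaling. The list of sterol control genes, which sense and regulate sterols, had 0 of 8 genes past 2-fold in either direction and a median of 0.26. Among them Srebf2, which encodes SREBP2, stood at 43.0 CPM at CT1 and 26.4 at CT17 (0.70), and Insig1, which retains the SREBP complex, had 0.01.

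Promoter sequences are shown for Hmgcs1 and Idi1, the list members with the largest ratios, from the RefSeq table of build GRCm38.p6, which covers 250 bases before to 50 after a start site. Of the 20 genes 15 had an entry. Capitals in the Hmgcs1 promoter, at chr13:119690101-119690400 on the plus strand, mark CCAAT (read as ATTGG on the other strand) and 1 copy of CACCCCAC, the core of a classic sterol regulatory element. Capitals in the Idi1 stretch, at chr13:8885516-8885655 on the plus strand, mark CCAAT.
Hmgcs1: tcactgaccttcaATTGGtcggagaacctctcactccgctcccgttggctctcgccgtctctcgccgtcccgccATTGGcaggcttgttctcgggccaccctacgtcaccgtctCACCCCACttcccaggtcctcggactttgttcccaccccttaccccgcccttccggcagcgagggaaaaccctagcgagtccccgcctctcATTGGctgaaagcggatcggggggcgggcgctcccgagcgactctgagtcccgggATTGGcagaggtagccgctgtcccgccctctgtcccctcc
Idi1: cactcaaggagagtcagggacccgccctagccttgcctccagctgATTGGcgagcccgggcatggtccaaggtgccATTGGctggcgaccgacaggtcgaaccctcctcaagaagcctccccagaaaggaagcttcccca
CCAAT, searched on both strands, was present in 14 of the 15 genes with an entry. It was present in 43.2% of the genes compared and in 37.4% of all 32851 promoters of the table. Among ER chaperone genes with an entry 16 of 18 held it, as did 60.0% of genes 2-fold higher at CT17 and 51.1% at CT1. CACCCCAC was present in 2 of 15 (Hmgcs1 and Acat2), in 3.67% of the genes compared and in 2.87% of all promoters. It was present in 3 of 18 ER chaperone genes and 2 of 18 core clock genes, so neither motif was particular to this list. Such a match describes letters and is no measured binding site.

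**Figure D3:**
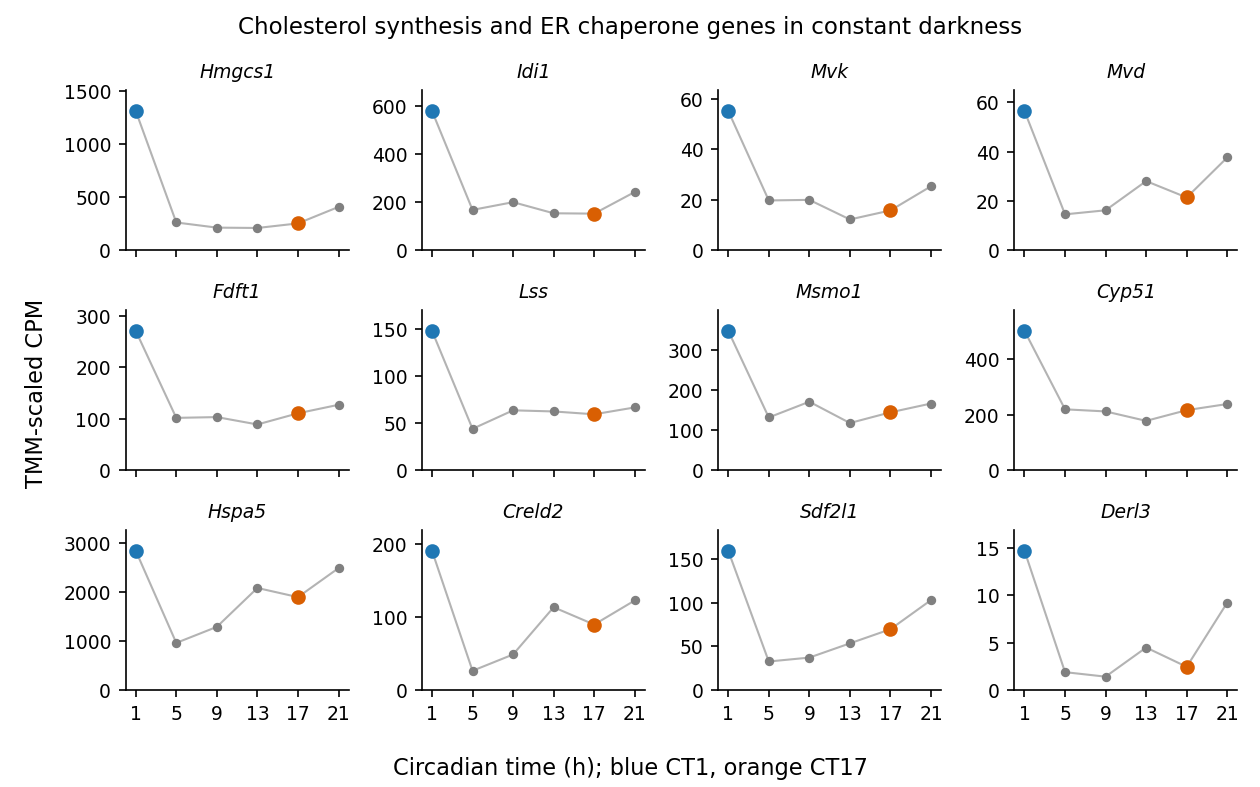
TMM-scaled CPM (vertical axes, each from 0) of 8 cholesterol synthesis genes and of Hspa5, Creld2, Sdf2l1 and Derl3, which act in the ER, at the 6 circadian times (horizontal, in h), 1 library per time, with CT1 in blue and CT17 in orange. In Hmgcs1 the point at CT1 is 1312 and the other 5 lie between 209 and 407.

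ER chaperone genes had ratios that were mostly in favour of CT1 but under 2-fold. Of 20 genes, all at the minimum, 2 were at least 2-fold higher at CT1 (0.601% of all genes compared) and 0 at CT17, 18 of 20 had a positive ratio, and the median was 0.58. Sdf2l1, an ER protein of the chaperone complex, stood at 159.5 CPM at CT1 and 69.5 at CT17, against 32.5 to 102.9 at the other times (log2 ratio 1.20, 1.14 to 1.25). Creld2, an ER stress-inducible protein, stood at 190.5 CPM at CT1 and 89.4 at CT17, against 26.2 to 122 (1.09, 1.04 to 1.14). The most abundant chaperone, Hspa5 (BiP), stood at 2843 CPM at CT1 and 1894 at CT17, against 960 to 2486 (0.59). CT1 was the highest of the 6 times in all 3 genes, and in 14 of the 20 genes of the list. Over all genes compared CT1 was above the other 4 DD libraries, CT17 set aside, in 20.2%.

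Other chaperones lay in between, with Hyou1 at 0.85, Hsp90b1 at 0.73 and Calr (calreticulin) at 0.65. Near 0 were Xbp1 (0.03), which encodes a transcription factor of the unfolded protein response, Edem1 (0.02) and Canx (0.04), and Herpud1 had -0.26. Derl3, a component of ER-associated degradation, is not on the list and was among the 12 largest ratios, at 14.7 CPM at CT1 and 2.44 at CT17, against 1.40 to 9.24 (2.59, 2.32 to 2.88). Trib3, which is induced in the integrated stress response, stood at 3.20 CPM at CT1 and 1.01 at CT17, against 1.22 to 6.59 (1.66). It was the 1 of 12 genes of that response at the minimum to pass 2-fold, against 1.94% of all genes compared, and their median was 0.13.

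Promoter stretches of 3 genes are shown because they hold the ER stress response element, CCAAT followed after 9 bases by CCACG, which is set in capitals. That of Creld2 is at chr15:88819500-88819639, that of Hspa5 at chr2:34771940-34772139 and that of Derl3 at chr10:75893222-75893361, all on the plus strand, and in Creld2 and Derl3 the element reads on the other strand.
Creld2: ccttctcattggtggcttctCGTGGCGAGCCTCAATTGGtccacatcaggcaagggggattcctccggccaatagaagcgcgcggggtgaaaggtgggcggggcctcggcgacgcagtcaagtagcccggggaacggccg
Hspa5: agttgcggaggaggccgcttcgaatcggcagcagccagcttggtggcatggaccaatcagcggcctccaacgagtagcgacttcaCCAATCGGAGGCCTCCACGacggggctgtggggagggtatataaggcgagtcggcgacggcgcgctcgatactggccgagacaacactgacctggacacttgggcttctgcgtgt
Derl3: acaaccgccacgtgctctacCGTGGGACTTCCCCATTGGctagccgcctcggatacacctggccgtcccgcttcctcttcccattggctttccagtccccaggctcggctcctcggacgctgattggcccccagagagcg
The element was present in 8 of the 18 ER chaperone genes with a promoter entry (Calr, Canx, Creld2, Dnajc3, Hsp90b1, Hspa5, Pdia6 and Syvn1) and in 0.119% of all promoters or 0.197% of those of the genes compared. Of these 8 genes 1, Creld2, was past 2-fold, and Canx and Dnajc3 had ratios of 0.04 and 0.19. Among the 47 genes 2-fold higher at CT1 with a promoter entry the element was present in 3, Creld2, Derl3 and Xlr3a.

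The core clock list split in both directions. Of its 23 genes 21 were at the minimum, 2 were at least 2-fold higher at CT1 (0.601% of all genes compared), 8 were at least 2-fold higher at CT17 (1.34% of all genes compared) and 11 lay within 2-fold. The median was -0.10, and it turned to 0.06 under total-count scaling.

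Nr1d1, the repressor REV-ERBα, stood at 10.6 CPM at CT1 (9.72 to 11.5) and 1.21 at CT17 (0.924 to 1.56), against 52.2 at CT5, 15.6 at CT9, 3.41 at CT13 and 17.7 at CT21. CT17 was its lowest time, and the ratio was 8.72-fold (log2 3.12, 2.74 to 3.53). The exons of Nr1d1 overlap those of Thra on the opposite strand by up to 263 bases, and Thra had a ratio of 0.51. Npas2, an activator that pairs with ARNTL, stood at 2.33 CPM at CT1 and 0.565 at CT17, against 0.103 to 4.88 (2.05, 1.45 to 2.69). Its level at CT17 rests on 28 counts.

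The Per genes and Cry1, repressors of the loop, were at least 2-fold higher at CT17 under TMM. Per3 stood at 1.93 CPM at CT1 (1.58 to 2.33) and 13.4 at CT17 (12.4 to 14.5), against 42.7, 63.1, 41.9 and 2.89 at CT5, CT9, CT13 and CT21 (log2 ratio -2.80, -3.11 to -2.50). CT1 was its lowest time, and CT17 was still well under its peak. Per2 stood at 6.01 CPM at CT1 and 13.3 at CT17, against 9.13 to 66.0 (-1.14), and Per1 at 2.17 and 4.70, against 1.14 to 23.4 (-1.12). Cry1, which peaks later than the Per genes, stood at 6.87 CPM at CT1 and 25.3 at CT17, against 5.92 to 29.9 (-1.88, -2.05 to -1.71). Cry2 had a ratio of -0.38.

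Tef, Dbp and Bhlhe40 were higher at CT17 as well. Tef stood at 22.9 CPM at CT1 and 89.0 at CT17, against 34.3 to 218 (-1.96, -2.05 to -1.87), and Bhlhe40, a repressor of E-box genes, at 26.1 and 76.9, against 25.6 to 135 (-1.56). Dbp stood at 1.52 CPM at CT1 and 3.94 at CT17, both far under its 95.7 at CT5 (-1.37). Its exons overlap Sphk2 on the opposite strand.

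Arntl, Clock and several partners had nearly equal levels at CT1 and CT17. Arntl stood at 19.6 CPM at CT1 and 19.1 at CT17, against 1.54 at CT5 and 34.2 at CT21 (0.04, -0.09 to 0.17). Clock had a ratio of 0.13, Nr1d2 of 0.06, Hlf of 0.12, Nfil3 of 0.14, Rora of -0.05 and the kinase Csnk1d of -0.01. Ratios of that size are under the scaling shift of 0.17. Ciart and Bhlhe41 did not reach 100 counts in either library.

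**Figure D4:**
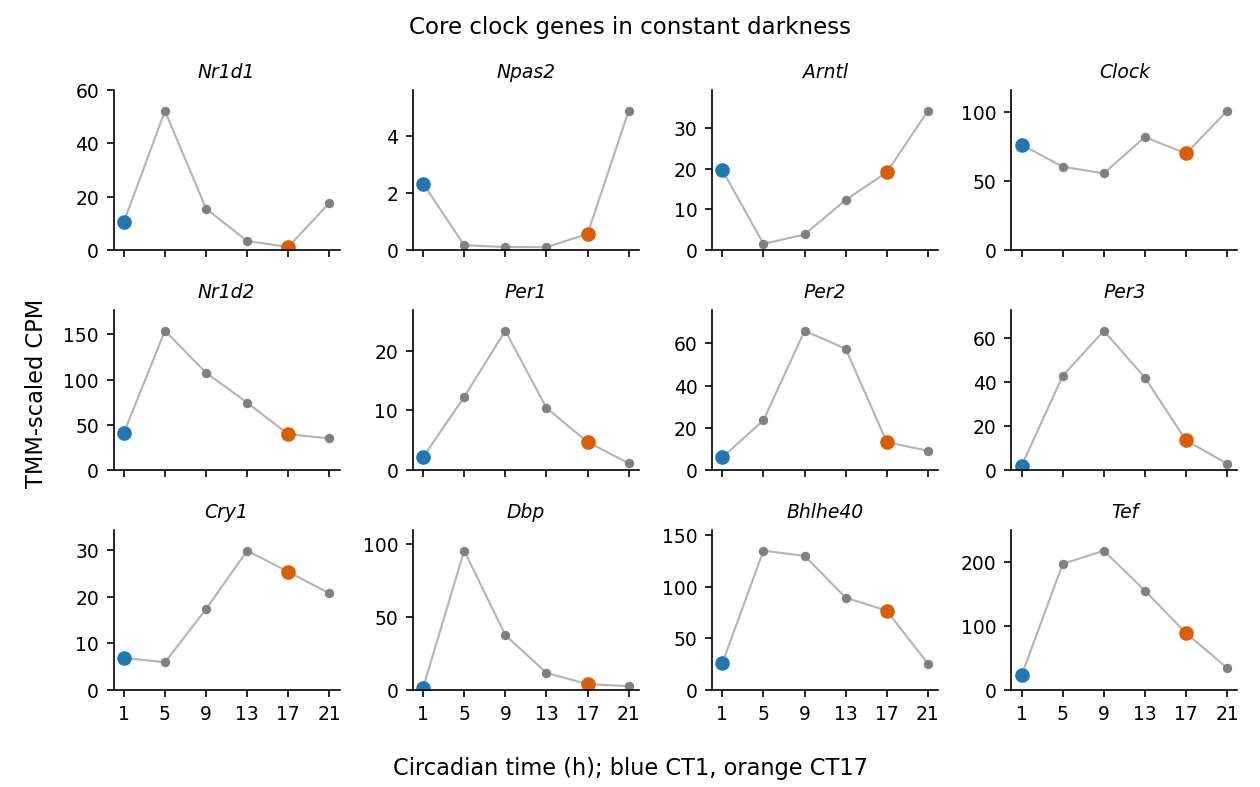
TMM-scaled CPM (vertical axes, each from 0) of 12 core clock genes at the 6 circadian times in DD (horizontal, in h), 1 library per time, with CT1 in blue and CT17 in orange. Arntl, Clock and Nr1d2 have points of nearly equal height at CT1 and CT17, Nr1d1 is lowest at CT17 (1.21) and Per3 at CT1 (1.93).

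Promoter stretches of Per3, Tef and Cry1, which were higher at CT17, are shown because they hold elements of the loop. Capitals mark 2 copies of the D-box TTATGTAA in Per3 (chr4:151044751-151044890, minus strand) and the E-box CACGTG in Tef (chr15:81802526-81802665, plus strand) and Cry1 (chr10:85185005-85185144, minus strand).
Per3: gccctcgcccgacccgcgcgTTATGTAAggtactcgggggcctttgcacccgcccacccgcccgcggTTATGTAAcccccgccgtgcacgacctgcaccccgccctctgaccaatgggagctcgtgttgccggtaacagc
Tef: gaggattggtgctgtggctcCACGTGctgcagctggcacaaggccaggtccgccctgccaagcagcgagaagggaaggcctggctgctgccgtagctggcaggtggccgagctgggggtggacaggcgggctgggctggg
Cry1: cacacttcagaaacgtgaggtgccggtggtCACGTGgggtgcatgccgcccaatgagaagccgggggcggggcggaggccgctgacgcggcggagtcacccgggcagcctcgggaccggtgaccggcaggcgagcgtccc
The D-box, as TTATGTAA or TTACGTAA on either strand, was present in 1 of 18 clock genes with a promoter entry, Per3, and in 1.06% of all promoters. Of the 115 genes 2-fold higher at CT17 with an entry 7 held it (6.09%, against 0.910% of the genes compared), namely Per3, G6pc, Ces1g, Chil1, Coq10b, Ecm2 and H3c11. Of the 47 genes 2-fold higher at CT1 with an entry 2 held it (4.26%), Atp2b2 and Xlr3a. The E-box was present in 5 of the 18 clock genes, Bhlhe41, Ciart, Cry1, Per1 and Tef. It was present in 7.15% of all promoters and in 11.9% of those of the genes compared. Of the 115 genes 2-fold higher at CT17 with an entry 15 held the E-box, as did 5 of the 47 at CT1. Both shares were close to that of the genes compared. The ROR element, as GTAGGTCA or GTGGGTCA, was present in 2 of the 18 clock genes, Arntl and Nfil3. It was present in 2 of the 115 genes and 1 of the 47, against 1.59% of the genes compared.

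Clock output genes follow the loop in liver. Of 28 such genes 25 were at the minimum, 0 were 2-fold higher at CT1 and 8 were 2-fold higher at CT17, against 1.34% of all genes compared. The median was -0.74, with 20 genes below 0 and 5 above. Some genes stand on several lists. The 8 genes include Cyp2a5, Por and Wee1, which are also given with other groups below. Usp2, a deubiquitinase, stood at 0.845 CPM at CT1 and 5.11 at CT17, against 1.12 to 32.8 (-2.60, -3.08 to -2.14), and its other RefSeq transcripts gave ratios down in size to -1.95. Wee1, a cell cycle kinase, stood at 1.51 CPM at CT1 and 4.64 at CT17, against 3.48 to 21.2 (-1.62). Lonrf3 had a ratio of -1.79 and Gys2, liver glycogen synthase, of -1.19. In Usp2 and Wee1 CT1 was the lowest of the 6 times.

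**Figure D5:**
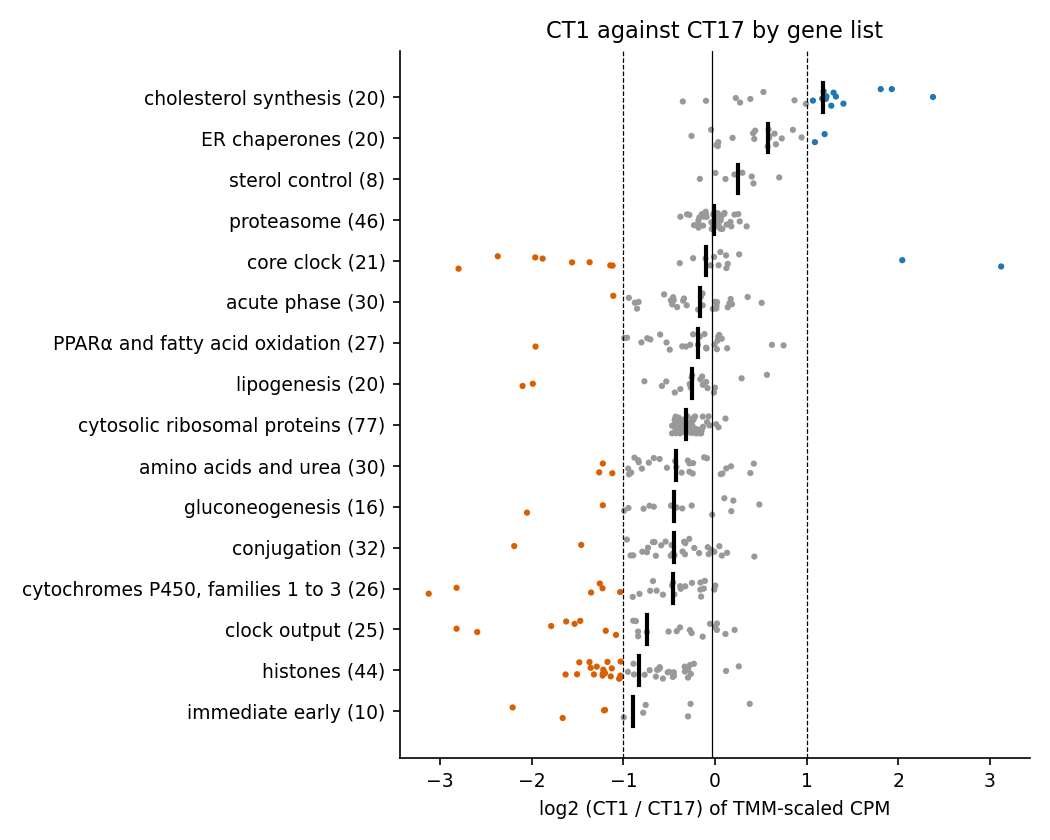
Log2 ratio of CT1 to CT17 for each gene at the count minimum (points) in 16 lists, with the number of genes in parentheses, the list median as a black bar, the median of all genes as a thin line and 2-fold as dashed lines. Points are blue where CT1 was at least 2-fold higher and orange where CT17 was. The medians run from 1.18 for cholesterol synthesis to -0.89 for immediate early genes; the histone list was picked after its values were seen.

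Genes of xenobiotic metabolism, the oxidation and conjugation of foreign compounds, held many of the largest ratios in favour of CT17. Of 34 cytochromes P450 of families 1 to 3, 26 were at the minimum, 6 were at least 2-fold higher at CT17 (1.34% of all genes compared), 0 at CT1, and the median was -0.46. Cyp2b10, a classic target of the nuclear receptor CAR, stood at 7.02 CPM at CT1 (6.33 to 7.76) and 61.2 at CT17 (59.0 to 63.4), against 15.6 at CT5, 63.7 at CT9, 61.7 at CT13 and 11.1 at CT21. The ratio was 8.72-fold with CT17 higher (log2 -3.13, -3.28 to -2.97), and CT1 was its lowest time. Cyp2a5, which hydroxylates coumarin, stood at 65.4 CPM at CT1 and 462 at CT17, against 237 to 1226 (-2.82, -2.87 to -2.77).

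Cyp2c29 stood at 866 CPM at CT1 and 2069 at CT17, against 1755 to 2347 (-1.26). Por, the reductase that supplies electrons to these enzymes, stood at 85.4 CPM at CT1 and 247 at CT17, against 76.1 to 494 (-1.53). CAR itself, Nr1i3, had a ratio of -0.52, and its exons overlap those of Tomm40l on the opposite strand by up to 2118 bases. In 23 of the 26 cytochromes CT1 was below the other 4 DD libraries, as it was in 38.0% of all genes compared. Members of the Cyp2 families resemble each other, and the sources used here do not say how reads that fit several genes were counted.

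Conjugation genes had 2 of 32 past 2-fold in favour of CT17 (1.34% of all genes compared), 0 in favour of CT1 and a median of -0.45. Sult1d1, a sulfotransferase, stood at 29.9 CPM at CT1 and 136.5 at CT17, its highest time (-2.19), and Gsta3, a glutathione transferase, at 424 and 1166 (-1.46). Among the 12 largest ratios outside these lists, Inmt, which methylates indole amines, stood at 87.1 CPM at CT1 and 579 at CT17, against 479 to 1458 (-2.73). Ces1d, a carboxylesterase, stood at 124 and 647 CPM, against 640 to 1117 (-2.38), and the uptake transporter Slco1a4 at 5.84 and 30.4, against 20.5 to 54.6 (-2.38). In Inmt, Ces1d and Slco1a4 CT1 lay under all 5 other times, and CT17 was inside or near the range of the rest.

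Bile acid genes held 1 gene past 2-fold in each direction. Nr0b2, the repressor SHP that lowers bile acid synthesis, stood at 56.0 CPM at CT1 and 10.8 at CT17, against 8.35 to 60.3 (2.37, 2.24 to 2.51). Cyp7a1, the rate-limiting enzyme of that synthesis, stood at 71.4 CPM at CT1 and 220 at CT17, against 131 to 469.5 (-1.63, -1.68 to -1.57). At CT9 Nr0b2 stood at 45.7 CPM where Cyp7a1 had its highest level, 469.5. At CT5 and CT13 Nr0b2 stood at 31.6 and 8.35 CPM, with Cyp7a1 at 299 and 300. A link between the 2 genes was not tested. Of the 18 genes of the list only Nr0b2 and Cyp7a1 passed 2-fold, and the median was -0.33. Over all genes compared 0.601% were 2-fold higher at CT1 and 1.34% at CT17. Cyp8b1, which makes the 12-hydroxylated bile acids, had a ratio of -0.10.

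Lists of glucose, amino acid and lipid handling had a few genes 2-fold higher at CT17, against 1.34% of all genes compared, and none at CT1. In the gluconeogenesis list 2 of 16 genes were 2-fold higher at CT17, G6pc and Tat, 0 at CT1, and the median was -0.45. G6pc, the glucose-6-phosphatase that releases glucose, stood at 74.0 CPM at CT1 and 307 at CT17, the lowest and the highest of the 6 times (-2.05). Pck1 had a ratio of -0.48. In the list of amino acid and urea genes 3 of 30 were 2-fold higher at CT17 and 0 at CT1 (median -0.43), among them the urea cycle enzyme Asl (-1.26).

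In the lipogenesis list 2 of 20 genes were 2-fold higher at CT17 and 0 at CT1, with a median of -0.25. Thrsp, an inducer of lipid synthesis, stood at 109 CPM at CT1 and 431 at CT17, against 299 to 2463 (-1.99), and Pnpla3, a lipid droplet acyltransferase and hydrolase, at 0.937 and 4.02, against 1.14 to 6.09 (-2.10). Slc25a25, a mitochondrial ATP-magnesium carrier, stood at 38.8 CPM at CT1 and 247.5 at CT17, against 34.6 to 313 (-2.67, -2.74 to -2.61). Scd1, the desaturase with the highest level in the list, had a ratio of -0.58.

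Angptl8, the hepatokine that the study followed, stood at 29.8 CPM at CT1 (28.4 to 31.3) and 114.6 at CT17 (111.7 to 117.6), against 57.9 to 193 at the other 4 times (-1.94, -2.02 to -1.86). CT1 was its lowest time. Apoa5, an apolipoprotein of triglyceride-rich particles, had a ratio of -1.06. Of the 20 apolipoprotein and angiopoietin-like genes 3 were 2-fold higher at CT17, against 1.34% of all genes compared, with a median of -0.25. Of the other genes that the study took from its screen, Idi1 and Mvd are given above, Gnat2 had a ratio of 1.04, Mfsd2a, a lysophospholipid transporter, of -1.44, and Pdk4, an inhibitor of pyruvate dehydrogenase, of 0.02.

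Cish and Socs2, feedback inhibitors of growth hormone signalling, were at least 2-fold higher at CT17. Cish stood at 4.67 CPM at CT1 and 18.9 at CT17, against 0.882 at CT21 and 36.9 at CT13 (-2.02, -2.22 to -1.81). Socs2 stood at 13.3 and 35.1 CPM, against 6.01 to 56.1 (-1.40). In both genes CT1 and CT17 lay inside the range of the other 4 times. They were the 2 of 15 genes of the insulin, IGF and growth hormone list past 2-fold, against 1.34% of all genes compared. The median of that list was -0.27, with 6 genes above 0 and 9 below, and Igf1 had -0.37.

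Further lists had few genes past 2-fold, set beside 1.94% of all genes compared, and those that were stood mostly higher at CT17. In the list of PPARα targets and fatty acid oxidation 1 of 27 genes at the minimum was past 2-fold, Acot1, an acyl-CoA thioesterase, at 2.46 CPM at CT1 and 9.57 at CT17, against 21.5 to 39.8 (-1.96, -2.25 to -1.68). Both libraries thus lay under the other 4 times for Acot1, with CT1 the lower. In the glycolysis and fructose list 1 of 14 genes was, Slc2a2, the glucose transporter GLUT2, at 73.1 and 173 CPM, against 218 to 426 (-1.24), and Khk, ketohexokinase, had -0.90. In the heat shock list 1 of 17 was, the small heat shock gene Hspb1, at 12.2 and 36.4 CPM, against 9.49 to 32.9 (-1.57), and the median was -0.37.

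In the list of glucocorticoid targets Tat, Per1 and Mt2 were the 3 of 14 genes past 2-fold, and the median was -0.19. All 3 were higher at CT17, against 1.34% of all genes compared, and each is also counted on another list given above. Tat, tyrosine aminotransferase, stood at 654 CPM at CT1 and 1526.5 at CT17, against 388 to 1652 (-1.22). Of the cold-inducible genes Cirbp, which is induced by cooling, had a ratio of 0.69 and Rbm3 of -0.27. The list of actin and SRF targets had 1 of 23 genes past 2-fold, Ccn2 (-1.37), against 1.94% of all genes compared, and a median of 0.03.

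In absolute level under TMM the differences were largest among plasma protein genes. The level of Alb was 9715 CPM higher at CT17, that of hemopexin (Hpx), which binds heme, 7044 CPM and that of the protease inhibitor Serpina3k 4792 CPM, at log2 ratios of -0.32, -0.48 and -0.32. Under total-count scaling these differences were 4514, 4389 and 2166 CPM. Those higher at CT1 were Fga, with a difference of 2867 CPM under TMM and 5206 under total counts, Fgb and Fgg, then Hmgcs1, with 1060.4 and 1102.5 CPM, Hspa5, fibronectin (Fn1), Hsp90b1 and Calr. Fn1 stood at 3307 CPM at CT1 and 2467 at CT17, against 1336 to 2205 (0.42).

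Immediate early genes, which cells transcribe within minutes of a stimulus, had the lowest median of the 52 lists with 3 or more genes at the minimum, -0.89, from 10 of 17 genes at the minimum. At a minimum of 10 counts it was -0.52, and the histone list was then lower, at -0.74. Of the 10 genes 4 were 2-fold higher at CT17, against 1.34% of all genes compared, and 0 at CT1. Fos stood at 1.16 CPM at CT1 and 5.35 at CT17, against 0.285 to 1.11 (-2.21, -2.63 to -1.81), and Egr1 at 4.0 and 12.7, against 0.826 to 9.03 (-1.66). Btg2 had a ratio of -1.20 and Jun of -1.21. In Fos and Egr1 CT17 was the highest of the 6 times, and the level of Fos at CT1 rests on 63 counts.

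Histone genes were numerous among those higher at CT17. The list of genes with the symbols H1f, H2ac, H2bc, H3c and H4c was picked after their values were seen, and its counts are a description. Of 67 such genes 44 were at the minimum, 19 were 2-fold higher at CT17, against 1.34% of all genes compared, and 0 at CT1, and the median was -0.83. The 19 genes make up 12.6% of the 151, while 44 of all 11306 genes compared are on the list. H3c10 stood at 2.65 CPM at CT1 and 7.51 at CT17, against 1.62 to 2.60 (-1.51, -1.79 to -1.22), and H2bc3 at 7.92 and 18.5, against 8.28 to 12.6 (-1.22). The letters TATAAA were present in 23 of the 39 histone genes with a promoter entry, in 9.31% of the genes compared and in 13.6% of all promoters. In 41 of the 44 genes CT17 was above the other 4 DD libraries, against 25.4% of all genes compared. In 5 of the 44 CT1 was below them, against 38.0% of all genes compared.

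Most of these genes encode histones made during DNA replication, whose mRNAs normally lack a polyA tail, and they are short and nearly identical copies. H1f0, a histone that is made outside replication, had a ratio of 0.26. In the cell cycle list 2 of 19 genes at the minimum were 2-fold higher at CT17, Wee1 and Ccne2 (-1.10), against 1.34% of all genes compared. The median of the list was -0.26, and Rrm2, a subunit of ribonucleotide reductase, had -0.81. The part of cell division in the histone ratios was not tested.

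The largest ratios of all were those of 2 major urinary protein genes, which belong to a cluster of near-identical copies on chromosome 4. Mup19 stood at 285 CPM at CT1 and 23.6 at CT17, against 27.6 to 577 (3.59, 3.51 to 3.68), and Mup8 at 352 and 30.0, against 14.4 to 33.8 (3.55, 3.48 to 3.63). Mup9 was higher at CT17, with 56.0 CPM at CT1 and 212 at CT17 (-1.92). The Mup list, which does not hold Mup8, had 18 genes at the minimum, 2 of them 2-fold higher at CT1 (Mup19 and Mup12) and 1 at CT17 (Mup9). Over all genes compared the shares were 0.601% and 1.34%. The summed level of the list was 23754 CPM at CT1 and 27593 at CT17. The values of single copies are uncertain, since reads may fit several of them.

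Other genes among the largest ratios in favour of CT1 were Xlr3a, an X-linked gene of a multicopy family, Depp1, Loxl4, Arrdc3 and Septin5. Xlr3a stood at 8.10 CPM at CT1 and 1.09 at CT17, against 1.31 to 6.09 (2.89, 2.48 to 3.33). Depp1, a target of FOXO factors, stood at 68.2 CPM at CT1 and 10.6 at CT17, against 7.23 to 72.7 (2.69, 2.55 to 2.82). Loxl4, a lysyl oxidase of matrix crosslinking, stood at 36.8 CPM at CT1 and 7.31 at CT17, against 3.88 to 21.4 (2.33). Arrdc3, an arrestin-like adaptor, stood at 245 and 64.0 CPM, against 36.9 to 417 (1.94). CT1 was the highest time for Loxl4, and lay inside the range of the rest for Depp1 and Arrdc3.

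Over all 68 genes higher at CT1, CT1 lay above the other 4 DD libraries with CT17 inside or above their range in 39, CT17 lay below them with CT1 inside or below their range in 16, both held in 6 and neither in 7. Over the 151 genes higher at CT17, CT17 lay above the others in 51, CT1 lay below them in 67, both held in 15 and neither in 18. Over all 11306 genes CT1 was above the other 4 in 20.2% and below them in 38.0%, and CT17 was above them in 25.4% and below them in 33.2%.

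Gene groups of broad function had no gene past 2-fold, which sets them little apart, since only 1.94% of all genes compared were. Some groups were one-sided, while the median over all genes compared was -0.03. Cytosolic ribosomal protein genes had 0 of 77 past 2-fold in either direction, but 74 of 77 had ratios below 0 and the median was -0.31. Respiratory chain genes had 0 of 75 past 2-fold, 70 of 75 below 0 and a median of -0.24, and proteasome genes had 0 of 46 and a median of -0.00578. Interferon-stimulated genes had 0 of 27 past 2-fold and a median of 0.01. Targets of STAT3 had 0 of 18 past 2-fold and a median of -0.26. Of 52 lists with 3 or more genes at the minimum 11 had a median above 0, and 22 had under total-count scaling.

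Ratios also followed transcript length and base composition. Among 11270 genes with a length in GENCODE M21 the median ratio was -0.14 in the shortest of 5 equal bins (216 to 1724 bases) and 0.03 in the longest, and 59 genes of the shortest bin against 12 of the longest were 2-fold higher at CT17. By GC content the median ran from -0.12 in the lowest of 5 bins to 0.06 in the highest. The median transcript length was 578.5 bases over the histone genes and 791 over the ribosomal protein genes. Centring the ratios within such bins of length or of GC, both chosen after seeing the data, left cholesterol synthesis at 1.22 and 1.18 and the histone list at -0.70 and -0.86.

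Few markers of other cell types lay 2-fold apart, as was true of genes in general (1.94% of all genes compared). None of the neutrophil (5 of 14 at the minimum), Kupffer cell and macrophage (13 of 14), endothelial (12 of 12) or stellate and fibroblast markers (11 of 11) lay 2-fold apart, with medians of -0.17, -0.31, -0.15 and 0.06. Ratios below 0 were found in 4 of 5, 12 of 13, 7 of 12 and 4 of 11 of them. The summed levels at CT1 and CT17 were 1327 and 1588 CPM for Kupffer cell markers, 629 and 656 for endothelial markers and 647 and 715 for stellate markers. The neutrophil sums of 1169 and 1304 CPM were mostly Lcn2, an acute phase gene, at 1105 and 1229. No marker of these 4 lists was at 0 counts in both libraries.

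Cholangiocyte markers were the exception, with 2 of 4 at the minimum 2-fold higher at CT17, against 1.34% of all genes compared. Epcam stood at 1.47 CPM at CT1 and 4.40 at CT17 against 1.39 to 1.88 at the other times (-1.58), and Krt19 at 1.34 and 3.13 against 0.892 to 2.37 (-1.22), while Sox9 had -0.06. The sums of 8 markers were 197 and 242 CPM, of which Spp1, which macrophages also express, made 186 and 226. Of the erythroid markers 1 of 6 was 2-fold higher at CT1, Slc4a1 (1.36), against 0.601% of all genes compared, and the sums were 343 and 298 CPM. Of 13 pancreatic acinar markers 1 and of 5 adipose markers 0 reached the minimum, and Cela3b, Amy2b, Try4 and Try5 were at 0 counts in both libraries. The part of these cell types in the ratios of other genes was not tested.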

How the data were processed

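Total RNA of pooled livers was made into 1 polyA+ library per condition and sequenced on a HiSeq in paired reads of 150 bases. The submitters' processing notes name TopHat2 2.0.13 and GRCm38/mm10. The counting program, its strand setting and the treatment of reads that fit several genes were not stated there or in the methods. The authors deposited raw counts per RefSeq transcript for each library, without normalization, and these counts were used as deposited.

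Each file held 27457 rows, of which 26390 were named from RefSeq, 115 from GENCODE M21 and 12 from tables of the study. The other 940 rows, 0.335% to 0.798% of counts, had no gene name and were left out. For each of the 20418 genes, 3737 of which had 2 or more rows, the row with the highest total over the 9 libraries was kept. TMM factors over the 9 libraries came from edgeR 4.0.16 in R 4.3.3 and ranged from 0.866 to 1.09. CPM and log2 ratios were computed with Python 3.11.15, numpy 2.4.6, pandas 2.3.3 and scipy 1.17.1, and plots with matplotlib 3.10.9. Genes with 100 or more counts in CT1 or CT17 were compared, and intervals for levels and ratios are exact at the 95% level. No gene at that minimum was at 0 counts in the other library, so the floor of 3 counts set for such a ratio was not needed. With 1 library per condition no test was made, and a gene was counted at a log2 ratio of at least 1 in either direction. The ratio, interval and count steps were checked on simulated data.

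The libraries, the 54 gene lists and the alternatives were chosen with earlier results of these data known. The rule for naming genes took the core clock genes, the 12 largest log2 ratios and the 8 largest level differences in each direction, the 4 largest ratios of each list, Angptl8 and 5 further genes of the study's screen. Other genes named in the text, such as single members of a list with smaller ratios, were chosen after their values were seen. A few genes that the rule names are not reported here. Alternatives were 4 scalings (DESeq2 1.42.0 for median-of-ratios size factors), 2 treatments of transcripts, 3 count minimums and a call on the counting interval. Promoters came from the RefSeq table of GRCm38.p6.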

Additional observations from a re-analysis of the deposited data

How the results depend on the processing

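Which genes passed 2-fold depended mainly on scaling and on the count minimum. Against 68 genes higher at CT1 and 151 higher at CT17, total counts gave 107 and 105, and total counts without the acute phase list 110 and 103. A minimum of 10 counts gave 423 and 449, a minimum of 500 gave 41 and 84, and no minimum beyond 1 count gave 1176 and 1285. Requiring the whole counting interval beyond 2-fold left 38 and 96. Of the 219 genes, 214 kept their call with TMM over CT1 and CT17 alone, 210 with DESeq2 size factors, 173 with total counts and 216 with the rows of a gene summed. The counts stayed within 1.5 times under TMM of both libraries alone, DESeq2 factors, summed rows, every RefSeq row as a feature, and centring by length or GC, where the centring was chosen after seeing the data (74 and 133 genes by length, 74 and 141 by GC).

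Under total counts and under total counts without the acute phase list, the list medians were 1.35 and 1.36 for cholesterol synthesis, 0.75 and 0.76 for ER chaperones, -0.72 and -0.71 for immediate early genes, -0.30 and -0.29 for cytochromes P450, 0.064 and 0.074 for the core clock, and -0.00153 and 0.00844 for acute phase genes, the shift that such scaling gives to every gene. The immediate early median was -0.52 at a minimum of 10 counts, and the histone median, of a list picked after its values were seen, was -0.61 at a minimum of 500. Of 1977 values of named genes under the alternatives, 472 differed from the value given by more than its counting error or 0.1, whichever was larger, and 0 of the genes past 2-fold turned in direction. No paired analysis was possible because each condition is 1 library. The replicate error of every ratio is unknown, so depth limits only the low genes, and library, pool and time cannot be told apart.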
